A study of Rattus norvegicus with 35 samples.

Results

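The matrix metalloproteinases (MMPs), the ADAM and ADAMTS proteases, the ADAMTS-like proteins and the tissue inhibitors of metalloproteinases (TIMPs) were followed in stretched cardiac myocytes. Members were all genes whose only symbol in the array annotation was Mmp, Adam, Adamts, Adamtsl or Timp followed by a digit, and the rule used no measured value. There were 55 such genes among the 14217 genes of the array: 17 Mmp, 18 Adam, 12 Adamts, 4 Adamtsl and 4 Timp genes, read by 79 probe sets. Where several probe sets read a gene alone, the brightest stood for it. A gene was called near background when its mean log2 intensity over all 35 arrays was at or below 5.18, the 95th percentile of 29 probe sets for smell, taste and related sensory receptors. By this measure 45 members and 11311 of all genes were above background, and the other 10 members (5 MMPs and 5 ADAMs) are described apart.

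Neonatal rat ventricular myocytes (NRVMs) were made from Sprague-Dawley pups aged 2 to 4 days and grown on flexible, collagen-coated plates, which a cyclic vacuum stretched from below. They are a myocyte-enriched primary culture, not a pure one, and hearts of newborn animals were their source. Each of the 7 groups had 5 biological replicates and so 5 arrays (Affymetrix Rat Genome 230 2.0). Set I held unstretched NRVMs (control I) and NRVMs after 1, 4 and 12 h of stretch, and set II held its own unstretched NRVMs (control II) and NRVMs after 24 and 48 h. The labels name no genetic change or drug in any group, and no difference within a set other than stretch and its duration. All times within a set were tested against the same 5 control arrays, so their differences are not independent, and the sets were not compared with each other. All values are log2 of the deposited intensity of a probe set, and levels of different probe sets were not compared. Array medians ran from an intensity of 88.7 to 95.8, arrays of a group correlated at 0.9898 to 0.9983, and precision is limited by the number of arrays (median residual SD over probe sets, log2, 0.1145 in set I and 0.1199 in set II).

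MMPs are zinc proteases that cut collagens and other matrix proteins, some secreted and some held at the cell surface as membrane-type MMPs. ADAMs are membrane proteases, several of which release growth factors and receptors from the cell surface, whereas ADAMTS proteases are secreted and, in the group that cuts proteoglycans, act on versican and aggrecan. ADAMTS-like proteins share the matrix-binding domains of the ADAMTS proteases but have no catalytic domain, and TIMPs block the proteases. In the heart, the balance of these proteins is known for its part in matrix turnover under overload. Array values report RNA and not the activity of a protease, which also depends on activation of the proenzyme and on inhibitors.

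Stretch changed members of the family in both directions, with more of them lower than higher at each of the 5 times, except that centring arrays on their median turned the balance at 1 h to 6 higher and 5 lower. Among the 45 members above background, 12 passed the test (limma, adjusted p under 0.05) at 1 h, 5 of them higher and 7 lower, where 20.3% of all genes above background did (10.1% higher, 10.2% lower). At 4 h 24 members passed (6 higher, 18 lower), where 44.2% of all genes did (20.9% higher, 23.3% lower), and at 12 h 29 (8 higher, 21 lower), where 47.3% of all genes did (23.6% higher, 23.8% lower). At 24 h 21 members passed (9 higher, 12 lower), where 28.4% of all genes did (16.3% higher, 12.1% lower), and at 48 h 23 (6 higher, 17 lower), where 48.4% of all genes did (26.4% higher, 22% lower). Both of these counts include Mmp3, which was below the background level on every array of set II. By the background level of set II alone, 20 members passed at 24 h (8 higher, 12 lower) and 22 at 48 h (5 higher, 17 lower). Of the members, 35 passed at 1 or more times. Where called, 8 were always higher, 22 always lower and 5 higher at some times and lower at others. The same counts were not made for all genes, and times of a set share their controls. The median log2 difference over the 45 members was -0.02, -0.052, -0.17, 0.028 and -0.053 at the 5 times, and over all genes above background -0.007, -0.011, -0.001, 0.028 and 0.038.

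**Figure D1:**
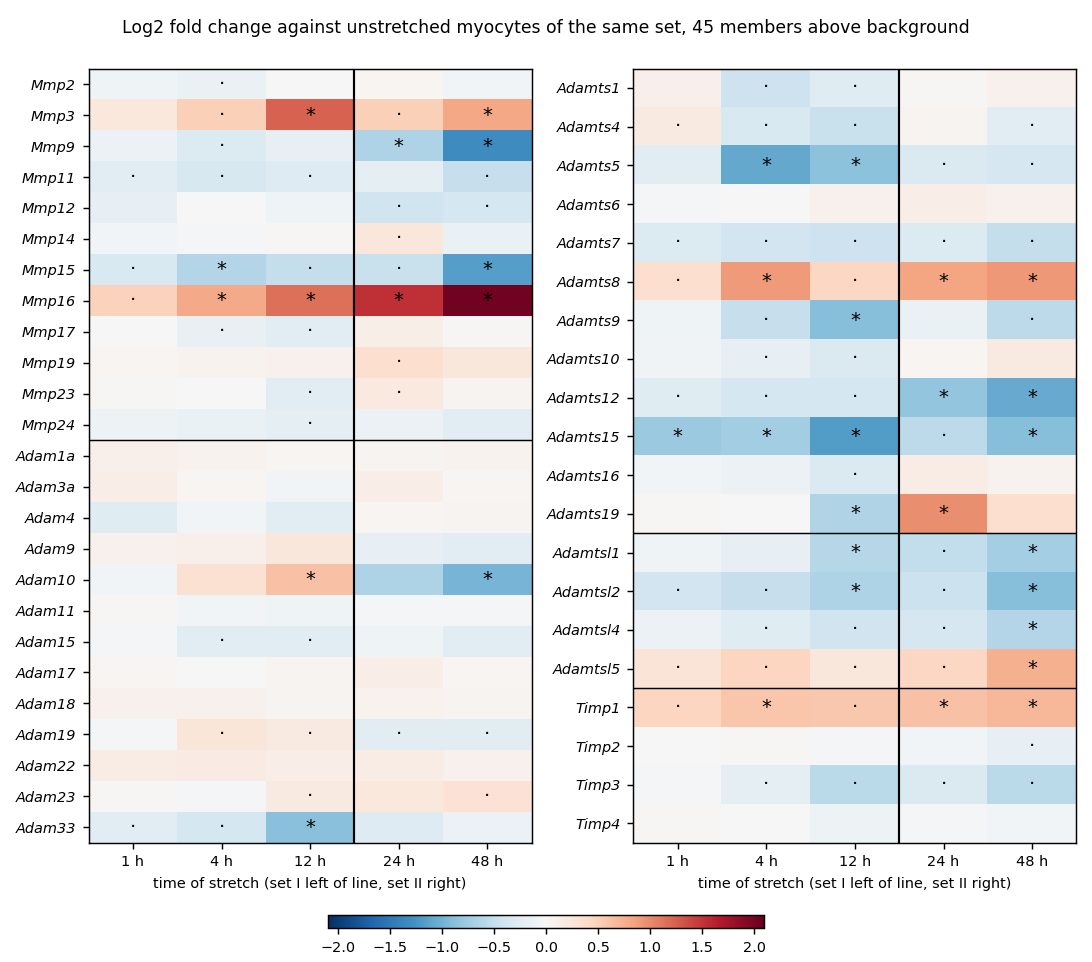
Log2 fold change of each of the 45 members above background (rows, by family) at each time of stretch (columns) against the control of the same set, n = 5 arrays per group. Dots mark an adjusted p under 0.05 and asterisks a change of at least 1.5-fold as well. The row of Mmp16 is higher and the rows of Mmp15, Adamts12, Adamts15 and Adamtsl2 are lower at all 5 times.

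Changes of at least 1.5-fold were fewer. They were found for 1 member at 1 h (1.64% of all genes above background changed that much), 6 at 4 h (4.35%) and 10 at 12 h (5%), and in set II for 6 at 24 h (4%) and 13 at 48 h (11%). The 13 at 48 h include Mmp3, and by the background level of set II alone there were 12. As shares of the 45 members the main counts were 2.22%, 13.3%, 22.2%, 13.3% and 28.9%. Each was above the share of all genes, and this difference was not tested. At 1 or more times 17 members reached this limit, and 9 passed the test at all 5 times. Of these 9, Mmp16, Adamts8, Adamtsl5 and Timp1 were higher, and Mmp15, Adamts7, Adamts12, Adamts15 and Adamtsl2 were lower. Neither count was made for all genes.

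**Figure D2:**
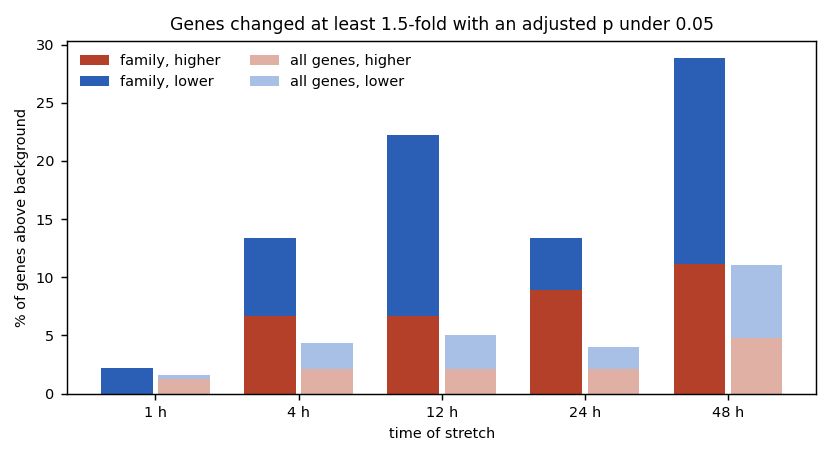
Percent of genes above background that changed at least 1.5-fold with an adjusted p under 0.05 (vertical axis) at each time of stretch (horizontal axis), for the 45 members (dark bars) and all 11311 genes (pale bars), split into higher and lower. At 48 h the bars end at 28.9% for the members and 11% for all genes.

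Arrays of a culture read the RNA of every cell in it, so fewer cells of a type and less RNA per cell cannot be told apart. Of the 14217 genes, 11311 were above background, so passing that level does not tell cell types apart. All 12 cardiomyocyte markers listed (Tnnt2, Myh6, Actn2 and others) were above it. Their summed intensity was 141149 to 146420 in control I and 134498 to 137251 at 12 h. In set II it was 129992 to 141529 in control II and 124863 to 132947 at 48 h. At 12 h 7 were lower and 1 higher, and at 48 h 7 were lower and 2 higher. The sum includes Nppa, which was itself higher at 24 h (log2 1.38) and 48 h (1.41). All 12 fibroblast markers were above background as well, and 3, 7 and 8 of them were lower at 1, 4 and 12 h and none higher (sum 73338 to 78733 in control I, 66757 to 71435 at 4 h and 68139 to 71952 at 12 h). In set II, 1 was lower at 24 h and 7 at 48 h, with 2 and 1 higher (sum 78015 to 81032 in control II and 66018 to 74226 at 48 h). Of 9 measured endothelial markers, Vwf was near background, and of the 8 others 7 were lower at 48 h (sum of all 9, 3739 to 4971 in control II and 2680 to 2875 at 48 h) and 6 at 12 h (2556 to 3077 in control I, 1977 to 2333 at 12 h). Of 6 epicardial and mesothelial markers above background, 5 were lower and 1 higher at 12 h. The sum of all 7, with Krt19 near background, was 3401 to 3687 in control I and 2410 to 2683 at 12 h. Smooth muscle and pericyte markers mostly moved the other way, 5 of 8 being higher and 1 lower at 48 h. The 8 were Acta2, Myh11, Cnn1, Tagln, Rgs5, Pdgfrb, Cspg4 and Des. Their sum was 8226 to 10342 in control II and 14228 to 15348 at 48 h. Whether these genes mark only those cells in this culture was not tested. The part of these marker changes in the results on proteases was not tested.

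Among the membrane-type MMPs, Mmp16 rose most and Mmp15 fell. Mmp16 (MT3-MMP), which activates pro-MMP2 and cuts collagen III, was higher at every time and differed from its control by more than any other member at 24 and 48 h. Its log2 intensity in control I was 6.59, 6.91, 6.89, 6.90 and 6.73. After 12 h of stretch it was 7.91, 8.02, 8.05, 7.85 and 7.99. All stretched arrays of set I, at every time, were above all control arrays, and the differences were 0.48 (standard error 0.068, adjusted p = 3.84e-05) at 1 h, 0.80 (1.82e-08) at 4 h and 1.16 (7.43e-11) at 12 h. In set II the control arrays were at 5.37, 5.23, 5.41, 5.51 and 5.30. They were 6.61, 7.07, 6.80, 7.12 and 6.93 at 24 h. At 48 h they were 7.47, 7.24, 7.48, 7.46 and 7.30. The 3 groups of set II did not overlap, and Mmp16 was 2.91-fold higher at 24 h and 4.08-fold higher at 48 h (log2 2.03, standard error 0.089, adjusted p = 1.12e-09). The steps from 1 to 4 h, 4 to 12 h and 24 to 48 h passed the test as well (log2 0.32, 0.36 and 0.49; adjusted p = 0.00321, 0.00142 and 0.00358).

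Mmp15 (MT2-MMP) went the opposite way. In set I its control arrays had log2 intensities of 9.58, 9.54, 9.45, 9.56 and 9.28, and at 4 h they were 8.98, 9.02, 8.87, 8.85 and 8.61. Control II was at 9.73, 9.88, 9.50, 9.96 and 9.68. At 48 h the arrays were at 8.78, 8.34, 8.60, 8.98 and 8.26. No stretched array reached its lowest control array. Mmp15 differed by -0.31, -0.61, -0.50 and -0.47 at 1, 4, 12 and 24 h (adjusted p = 0.00717, 2.96e-06, 3e-05 and 0.0111). It was lowest against its control at 48 h (log2 -1.16, standard error 0.12, adjusted p = 1.44e-06), and the step from 24 to 48 h passed (log2 -0.69, adjusted p = 0.00227).

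Mmp14 (MT1-MMP), the main activator of pro-MMP2, differed from control by -0.052 to 0.031 in set I, and none of these differences passed. It was higher by 0.24 at 24 h (adjusted p = 0.0204), and the difference of -0.14 at 48 h did not pass (0.132). The call at 24 h was lost without replicate 1 of control II (adjusted p = 0.0556) and without replicate 3 of the 24 h group (0.0535). A dimmer probe set of Mmp14, above background, gave 0.018 at 24 h (adjusted p = 0.928) and -0.24 at 48 h (0.052). Averaged over both probe sets, Mmp14 did not pass at 24 h (0.13, adjusted p = 0.202) and was lower at 48 h (-0.19, 0.0347). Of the remaining membrane-bound members, Mmp17 was lower at 4 and 12 h (-0.15 and -0.24) and Mmp24 at 12 h (-0.21). Mmp23 was lower at 12 h (-0.23) and higher at 24 h (0.20). A dimmer probe set of Mmp23 was lower at 12 h (-0.11) and did not pass at 24 h (0.076, adjusted p = 0.434). For Mmp24 a dimmer one was lower at 4, 12 and 48 h (-0.27, -0.31 and -0.27). The dimmest probe set of each gene passed at no time.

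Of the secreted MMPs, Mmp3 rose, Mmp9 fell late and Mmp2 hardly moved. Mmp3 (stromelysin-1), which cuts proteoglycans and fibronectin and activates other pro-MMPs, had a clear rise at 12 h. Its log2 intensity in control I was 5.97, 5.78, 5.43, 5.77 and 6.10. After 12 h of stretch it was 6.86, 6.80, 7.34, 7.30 and 6.91. Every array at 12 h was above every control array, by 2.35-fold on average (log2 1.23, standard error 0.14, adjusted p = 5.83e-07). The difference was 0.21 at 1 h (adjusted p = 0.376) and 0.51 at 4 h (0.00736), and the step from 4 to 12 h passed (log2 0.73, adjusted p = 0.00152). In set II control arrays were at 3.88, 3.81, 3.95, 4.04 and 3.85. At 48 h they were 4.79, 4.76, 5.07, 4.33 and 4.65. These groups did not overlap either and the test called Mmp3 higher at 24 h (0.49), where 1 or more arrays overlapped the controls, and 48 h (0.82, adjusted p = 0.000113), but all 15 arrays of set II were below the background level of 5.18.

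Mmp9 (gelatinase B), which cuts denatured collagen and is known from leukocytes, fell late. Control II had log2 intensities of 8.45, 8.71, 8.49, 8.85 and 8.44. At 24 h they were 8.21, 7.89, 7.80, 7.91 and 7.88. After 48 h of stretch they were 7.31, 7.27, 7.06, 7.31 and 7.37. The 3 groups did not overlap, and the log2 difference of Mmp9 was -0.65 at 24 h (standard error 0.093, adjusted p = 0.000164) and -1.33 at 48 h (standard error 0.093, adjusted p = 3.4e-08), a further step from 24 h of -0.68 (adjusted p = 0.000443). In set I the difference passed at 4 h (-0.29, adjusted p = 0.0106) and not at 1 h (-0.12) or 12 h (-0.17, adjusted p = 0.117). Macrophage markers fell in the same cultures: of 9 above background, 4 were lower at 24 h and 8 at 48 h (Cd68 -0.75, Mrc1 -1.13, Adgre1 -0.97 at 48 h), and the sum of all 11 measured was 3498 to 4554 in control II, 3134 to 3338 at 24 h and 2196 to 2610 at 48 h. Of the list, C1qb and Cd163 were near background, and the part of macrophage RNA in the fall of Mmp9 was not tested. Mmp12 (macrophage elastase) was likewise lower at 24 h (-0.42, adjusted p = 0.0166) and 48 h (-0.37, 0.0197).

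Mmp2 (gelatinase A), made by fibroblasts, hardly moved. Its control arrays in set I ranged from 12.21 to 12.28 and in set II from 12.46 to 12.57. The difference was -0.15 at 4 h (adjusted p = 0.00307), and between -0.083 and 0.041 at the other times, where none passed. At 1 h the difference of -0.083 passed with the ordinary variance (adjusted p = 0.0228) and with a variance trend (0.0324). A dimmer probe set of Mmp2, above background, was higher at 24 h (0.23, adjusted p = 0.0312) and did not pass at 4 h (-0.074, 0.381). Mmp11 (stromelysin-3) was lower at 1, 4, 12 and 48 h (-0.24, -0.34, -0.27 and -0.49) and Mmp19 was higher at 24 h (0.35).

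**Figure D3:**
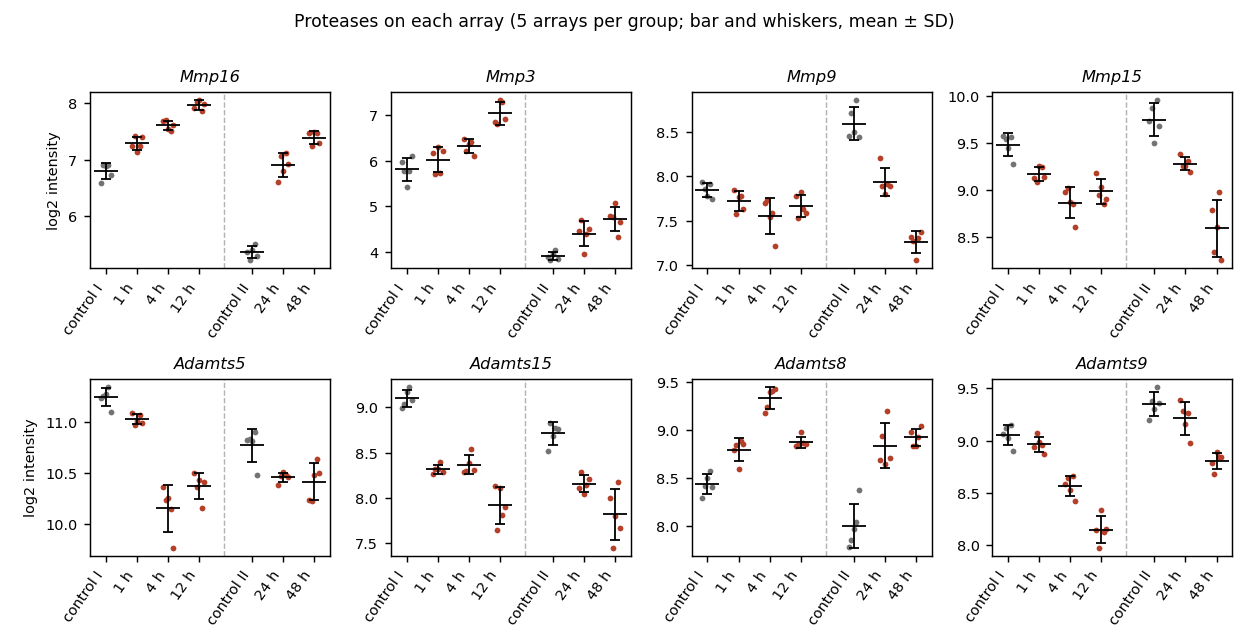
Log2 intensity (vertical axes) of 8 proteases on each array (points) by group (horizontal axis), with the mean and SD of the 5 arrays, controls in gray and stretched groups in red, and a dashed line between the sets. The stretched arrays of Mmp16 and Adamts8 lie above the controls of their set and those of Mmp15 and Adamts15 below them.

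Several secreted MMPs lie next to each other in the rat genome, and their promoters were searched for motifs. Promoters (250 bases before to 50 after the start, RefSeq, build GRCr8) matched 34 of the 55 members. The AP-1 letters TGANTCA, searched on both strands, were in 6 of these 34 (17.6%) and in 7.33% of all 27457 promoters. In 5 of the 6 they began 61 to 87 bases before the start of an MMP gene on chromosome 8, and the sixth was Adam19. Among the 28 matched members above background they were in 3 (10.7%), since Mmp7, Mmp10 and Mmp13 were near background. The 5 windows are shown to give the letters around each match, which is in capitals and was fixed by the search. The promoter of Mmp8, between those of Mmp10 and Mmp7, held no match.
Mmp3, chr8:12925190-12925236, plus strand: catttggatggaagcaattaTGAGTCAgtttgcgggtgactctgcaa
Mmp10, chr8:12974626-12974672, plus strand: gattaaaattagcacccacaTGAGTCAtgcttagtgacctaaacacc
Mmp12, chr8:12866545-12866591, plus strand: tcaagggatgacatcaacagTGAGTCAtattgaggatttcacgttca
Mmp13, chr8:12782743-12782789, plus strand: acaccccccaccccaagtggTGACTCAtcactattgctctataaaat
Mmp7, chr8:13132943-13132989, plus strand: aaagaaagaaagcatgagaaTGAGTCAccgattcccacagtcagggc
Of these 5 genes Mmp3 was the member called higher, Mmp12 was called lower at 24 and 48 h, and Mmp7, Mmp10 and Mmp13 were near background and were called at none of the 5 times. The antioxidant response letters TGACNNNGC were in 14.7% of the 34 matched members and in 12.2% of all promoters. The letters of the CRE (TGACGTCA) were in none of the 34 and in 1.91% of all promoters, and those of the TEAD site (GGAATG) in 8.82% and 13.9%. A match is a description of letters and not of binding.

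At each time the ADAMs had the lowest share of genes called among the 5 families. Of 13 above background, 1, 3, 5, 1 and 3 passed at 1, 4, 12, 24 and 48 h, and Adam10 and Adam33 reached 1.5-fold. Among all genes above background, 20.3%, 44.2%, 47.3%, 28.4% and 48.4% passed at these times. Adam17 (TACE), the sheddase of tumor necrosis factor and several EGF-family ligands, differed by -0.01 to 0.14 over the 5 times and never passed (lowest adjusted p = 0.116, at 24 h). Its arrays in set I ranged from 10.13 to 10.38, all groups included.

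Adam10, the sheddase of Notch and of N-cadherin, was higher at 12 h and lower at 48 h. Control I had log2 intensities of 6.81, 7.04, 7.10, 6.86 and 7.14, and after 12 h they were 7.26, 7.93, 7.59, 7.46 and 7.78. The 2 groups did not overlap (log2 0.61, standard error 0.13, adjusted p = 0.00113). In set II the control arrays spread from 7.36 to 8.32 and those at 24 h from 6.20 to 7.90. At 48 h they were 6.99, 7.07, 6.68, 7.26 and 6.41. All arrays at 48 h were below the lowest control array (log2 -0.98, standard error 0.27, adjusted p = 0.00933), and the difference of -0.65 at 24 h did not pass (0.107). Its other, dimmer probe set, near background, gave 0.83 at 12 h (adjusted p = 0.0112) and -0.88 at 48 h (0.0466).

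Adam33, an ADAM of mesenchymal cells, was lower at 1, 4 and 12 h, as were 3, 7 and 8 of 12 fibroblast markers. At 12 h the median log2 difference of the 12 was -0.15, and 2 were past 1.5-fold (Pdgfra -1.10 and Fbln1 -0.60). Of all genes above background, 23.8% were lower at 12 h. The part of the fibroblast markers in the fall of Adam33 was not tested. Control I was at 8.78, 8.84, 8.80, 8.93 and 9.07, and after 12 h the arrays were at 8.06, 7.94, 7.90, 8.08 and 8.03. These groups did not overlap. The differences were -0.24 at 1 h (adjusted p = 0.0374), -0.36 at 4 h (0.00102) and -0.88 at 12 h (standard error 0.077, 2.27e-08). The call at 1 h was lost without any of 7 arrays (replicates 2, 4 and 5 of control I and 1, 3, 4 and 5 of the 1 h group, adjusted p 0.0534 to 0.110). In set II Adam33 differed by -0.27 at 24 h and -0.13 at 48 h, and neither passed (0.0944 and 0.392). Of the 12 fibroblast markers, 1 was lower and 2 were higher at 24 h, with a median of -0.035. At 48 h 7 were lower and 1 higher, with a median of -0.179. Adam19 was higher at 4 and 12 h (0.25 and 0.18) and lower at 24 and 48 h (-0.23 and -0.23), Adam15 was lower at 4 and 12 h (-0.22 and -0.23), and Adam23 higher at 12 and 48 h (0.19 and 0.31). The other 8 ADAMs above background were called at no time.

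Of the 12 ADAMTS genes, 3 were lower and 2 higher at 1 h, and 8 lower and 1 higher at 4 h. At 12 h 10 were lower and 1 higher, at 24 h 4 lower and 2 higher, and at 48 h 6 lower and 1 higher. Among all genes above background, 10.2%, 23.3%, 23.8%, 12.1% and 22% were lower at the 5 times. Higher were 10.1%, 20.9%, 23.6%, 16.3% and 26.4%. Of the 6 in the proteoglycanase group (Adamts1, Adamts4, Adamts5, Adamts8, Adamts9 and Adamts15), all passed at 4 h and at 12 h, 5 lower and Adamts8 higher at both times. The median log2 difference of the 6 was -0.46 at 4 h and -0.66 at 12 h. At 1, 24 and 48 h this median was 0.015, -0.054 and -0.29. Some markers of other cell types were lower at 4 and 12 h too. Among them were 6 of 8 endothelial markers at both times (sum 1962 to 2434 at 4 h). Of 12 fibroblast markers, 7 were lower at 4 h and 8 at 12 h. Of 6 epicardial markers, 1 was lower and 1 higher at 4 h, and 5 were lower and 1 higher at 12 h. Macrophage markers were lower for 2 of 9 at 4 h and 3 of 9 at 12 h. Of 8 smooth muscle and pericyte markers, 5 were higher and 1 lower at 4 h, and 2 higher and 1 lower at 12 h. The part of these marker changes in the fall of the ADAMTS genes was not tested.

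Adamts5 (aggrecanase-2, which also cuts versican) was lower at 4 and 12 h, and lower at 4 h than at 1 h. Control I was at 11.22, 11.25, 11.27, 11.33 and 11.10. After 1 h the arrays were at 11.08, 10.97, 11.01, 11.06 and 10.99, and after 4 h at 10.36, 10.24, 10.25, 10.15 and 9.77. No stretched array of set I reached the controls, but the difference at 1 h (-0.21) did not pass (adjusted p = 0.0997). Its other, dimmer probe set, above background, was lower at 1 h (-0.26, adjusted p = 0.00885), and the brightest one passed at 1 h with only the arrays of the comparison (adjusted p = 0.0105), with array weights (0.0103), with quantile normalization (0.0417), without replicate 5 of the 4 h group (0.0148) and averaged with the other (0.0144). The log2 difference of Adamts5 was -1.08 at 4 h (fold change 0.473, standard error 0.083, adjusted p = 4.81e-09) and -0.86 at 12 h (7.86e-08). The step from 1 to 4 h was -0.87 (adjusted p = 4.96e-07). In set II it was lower as well, with differences of -0.31 and -0.35 (adjusted p = 0.0191 and 0.00434), where a low control array (replicate 5, 10.48, the others being at 10.81 or above) overlapped the stretched ones.

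Adamts15, a proteoglycanase that also cuts versican, was the member past 1.5-fold at 1 h. Control I was at 8.99, 9.04, 9.17, 9.22 and 9.08. The arrays at 1 h were at 8.26, 8.32, 8.32, 8.39 and 8.28, and those at 12 h at 8.14, 7.65, 8.11, 7.81 and 7.90. No stretched array overlapped a control array in either set. The differences were -0.78 (standard error 0.077, adjusted p = 3.24e-07), -0.73 and -1.18 in set I, and -0.55 and -0.89 in set II (adjusted p = 0.00185 and 7.93e-06). Between 1 and 4 h the level differed by 0.049 (adjusted p = 0.771), and from 4 to 12 h it fell again (-0.44, 0.000613).

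Adamts8, a proteoglycanase also known to restrain new vessels, was the exception. Control I was at 8.29, 8.42, 8.49, 8.56 and 8.41. At 4 h the arrays were at 9.17, 9.23, 9.39, 9.41 and 9.42, and at 12 h at 8.83, 8.84, 8.97, 8.86 and 8.85. All stretched arrays of set I were above all controls, and the level at 4 h was above that at 1 h and at 12 h without overlap. The differences from control were 0.36, 0.89 and 0.44 (adjusted p = 0.000495, 1.78e-09 and 1.64e-05), with steps of 0.53 from 1 to 4 h and -0.45 from 4 to 12 h (adjusted p = 8.22e-06 and 6e-05). In set II control arrays were at 7.78, 7.85, 7.96, 8.04 and 8.37. At 48 h they were 8.97, 8.83, 8.83, 8.93 and 9.03. The rise of Adamts8 was 1.78-fold at 24 h and then 1.89-fold (adjusted p = 0.000114 and 9.23e-06), again with no overlap.

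Adamts9, a versican-cutting protease, fell stepwise, with log2 differences of -0.48 at 4 h and -0.90 at 12 h (adjusted p = 5.65e-06 and 1.03e-09), and it was lower at 48 h (-0.54, 3.06e-05) but did not pass at 24 h (-0.14). Its steps from 1 to 4 h, 4 to 12 h and 24 to 48 h were -0.40, -0.42 and -0.41, and each passed. Averaged with its other, dimmer probe set (0.26 at 48 h, adjusted p = 0.0729), the call at 48 h was lost (adjusted p = 0.142). Adamts1 was lower at 4 and 12 h (-0.43 and -0.26), and Adamts4 was higher at 1 h (0.19) and lower at 4, 12 and 48 h (-0.32, -0.46 and -0.23).

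Outside the proteoglycanases, Adamts12, which cuts cartilage oligomeric matrix protein (COMP), was lower at all 5 times. In set II its control arrays were at 10.21, 10.12, 10.26, 10.15 and 10.11. They were 9.88, 9.25, 9.46, 9.01 and 9.14 at 24 h and 9.15, 9.37, 8.99, 8.96 and 9.11 at 48 h. All stretched arrays were below all controls, with differences of -0.82 (standard error 0.13, adjusted p = 0.00028) and -1.05 (standard error 0.13, adjusted p = 7.01e-06), against -0.25, -0.36 and -0.36 in set I. Adamts7, which also cuts COMP, was lower at all 5 times, with log2 differences of -0.29 to -0.51. Adamts19 was lower at 12 h (-0.63, adjusted p = 7.11e-07) and higher at 24 h (0.97, standard error 0.23, 0.00794). Its arrays in control II were 6.47, 6.26, 6.79, 6.53 and 7.34 and at 24 h 6.96, 7.80, 7.70, 7.77 and 7.997, so 1 array of each group lay within the other, and at 48 h the difference of 0.36 did not pass (0.265).

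Of the ADAMTS-like genes, Adamtsl1, Adamtsl2 and Adamtsl4 were lower and Adamtsl5 was higher, and at 48 h all 4 were past 1.5-fold. Adamtsl2, whose product binds the latent TGF-beta binding protein LTBP1, was lower at every time (-0.41, -0.49, -0.65, -0.45 and -0.89). Control II was at 8.75, 8.84, 8.50, 8.79 and 8.66, and at 48 h the arrays were at 7.93, 7.73, 7.65, 7.89 and 7.88. These groups did not overlap (standard error 0.082, adjusted p = 4.87e-07), and Adamtsl2 was lower at 48 than at 24 h (-0.45, 0.00365). Adamtsl1 was lower at 12, 24 and 48 h, with log2 differences of -0.60, -0.51 and -0.71 (adjusted p = 8.47e-07, 0.000347 and 3.78e-06) and Adamtsl4, whose product binds fibrillin-1, was lower from 4 h on (-0.25, -0.42, -0.35 and -0.61). Adamtsl5 was higher by 0.26, 0.46 and 0.24 in set I and 0.43 and 0.75 in set II (adjusted p at 48 h = 9.78e-05). At 48 h its arrays were 10.02, 9.72, 9.94, 10.06 and 10.05 and in control II 9.22, 9.05, 9.17, 9.07 and 9.51, with no overlap.

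The 4 inhibitors diverged: Timp1 rose at all times, Timp3 fell from 4 h on by its brightest probe set, and Timp2 and Timp4 moved little. Timp1, which blocks most secreted MMPs but membrane-type MMPs poorly, had log2 intensities of 12.16, 12.19, 12.18, 12.27 and 12.24 in control I. They were 12.67, 12.71, 12.63, 12.68 and 12.63 at 1 h and 12.76, 12.75, 12.81, 12.84 and 12.84 at 4 h. All stretched arrays were above all controls. The rise was 0.45 at 1 h, 0.59 at 4 h and 0.57 at 12 h (standard error 0.037, adjusted p = 1.89e-08, 3.04e-10 and 3.76e-10), and the step from 1 to 4 h passed (0.14, adjusted p = 0.0178). In set II control arrays were at 11.68, 11.78, 11.72, 11.71 and 11.85, and those at 48 h at 12.52, 12.51, 12.42, 12.44 and 12.30. The rise of Timp1 was 1.52-fold at 24 h and then 1.61-fold (adjusted p = 9.02e-06 and 2.37e-07), with no overlap.

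**Figure D4:**
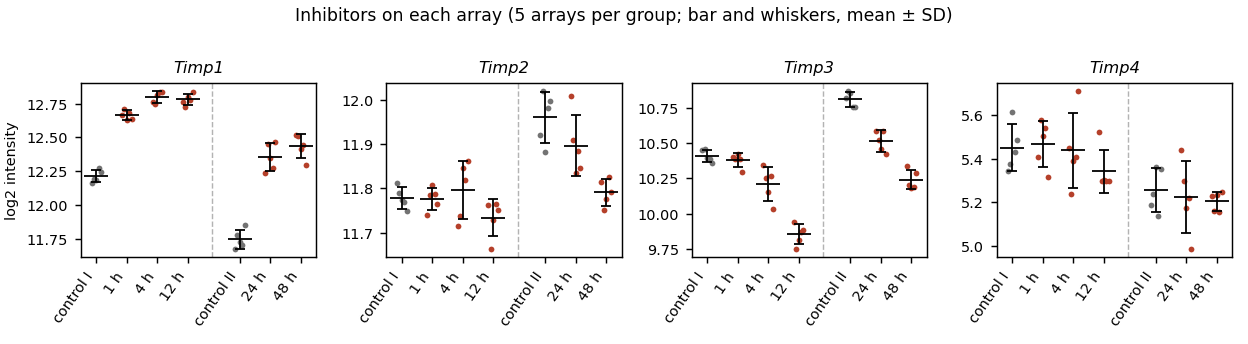
Log2 intensity (vertical axes) of the 4 inhibitors on each array (points) by group (horizontal axis), with the mean and SD of the 5 arrays and a dashed line between the sets. Timp1 is above and Timp3 below its control at 12, 24 and 48 h without overlap, and the axes of Timp2 and Timp4 span under 1 log2 unit.

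Timp3, a matrix-bound inhibitor that also blocks ADAM17 and the proteoglycan-cutting ADAMTS proteases, was read by 4 probe sets that did not move together. The brightest was at 10.45, 10.46, 10.40, 10.39 and 10.36 in control I and 9.94, 9.75, 9.82, 9.87 and 9.89 at 12 h. These groups did not overlap. It was lower from 4 to 48 h, with log2 differences of -0.20, -0.56, -0.30 and -0.57 (adjusted p = 0.00551, 5.41e-08, 0.00073 and 3.54e-07). A probe set of nearly the same brightness was lower at 12, 24 and 48 h (-0.24, -0.24 and -0.41) and not at 4 h (0.064, adjusted p = 0.505). The 2 dimmer ones were higher at 4 h (0.48 and 0.38) and 12 h (0.31 and 0.39), the first of them lower at 24 and 48 h (-0.34 and -0.42). With the 4 averaged, Timp3 was higher at 4 h (0.18, adjusted p = 0.0076) and its difference at 12 h did not pass (-0.026, adjusted p = 0.761), so its direction in the first 12 h depends on the probe set. Which transcript parts or isoforms the probe sets read was not examined here.

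Timp2, the partner of MT1-MMP in the activation of pro-MMP2, differed by -0.064 to 0.017 up to 24 h without passing and was lower at 48 h (log2 -0.17, adjusted p = 0.01), a call lost with arrays centred on their median (adjusted p = 0.0647). Its dimmer probe set gave -0.69 at 48 h (adjusted p = 0.016). Timp4, an inhibitor known for its high level in adult heart, lay close to background, with all 35 arrays at 4.99 to 5.71, and passed at no time (differences -0.11 to 0.019). Over the family, 16 members had more than 1 probe set, and 17 of their 24 other probe sets were above background. Both probe sets were called with opposite sign in 6 cases, all of Timp3 and Adamts10 at 4 and 12 h. Adamts10, which interacts with fibrillin-1, was lower at 4 and 12 h by its brightest probe set (-0.18 and -0.31), whereas the other was higher at 4, 12, 24 and 48 h (0.24, 0.25, 0.53 and 0.97).

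**Figure D5:**
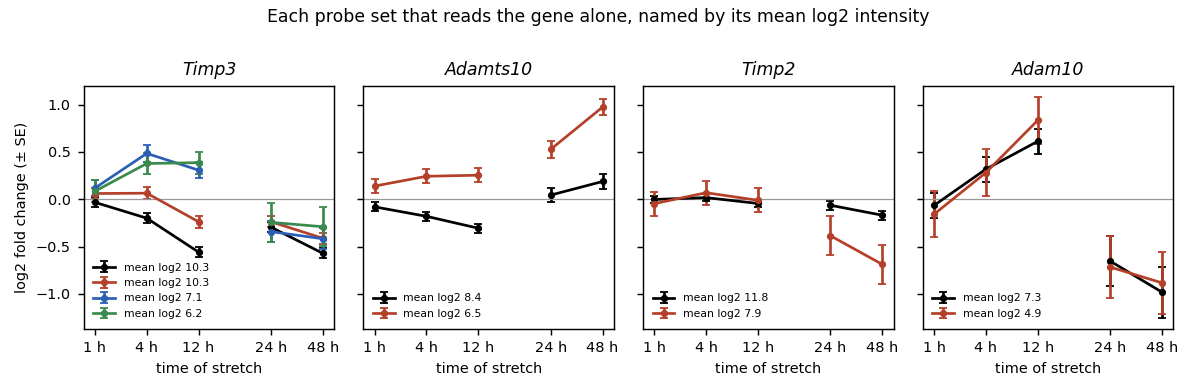
Log2 fold change with its standard error (vertical axis) at each time of stretch (horizontal axis) for every probe set that reads Timp3, Adamts10, Timp2 or Adam10 alone, each named by its mean log2 intensity over all arrays. The lines of Timp3 and Adamts10 run on both sides of 0 at 4 and 12 h, and those of Adam10 lie close together.

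Neighboring times of a set were compared directly, which leaves the control out. Between 1 and 4 h 11 of the 45 members differed (5 higher, 6 lower; of all genes 21.5%, 10.7% higher and 10.8% lower), between 4 and 12 h 15 (5 higher, 10 lower; of all genes 14.9%, 7.19% higher and 7.67% lower) and between 24 and 48 h 9 (1 higher, 8 lower; of all genes 10.7%, 3.65% higher and 7.04% lower). From 4 to 12 h the larger steps were those of Mmp3 (0.73), Adamts19 (-0.64) and Adam33 (-0.52). Between 24 and 48 h Mmp16 was the member that rose, and Mmp15, Mmp9, Adamtsl2, Adamts9, Mmp14 and Timp3 were among those that fell.

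Genes that act on the proteases were counted from a list of their own. Of 15 measured regulators and partners, 1, 6, 6, 3 and 5 passed at the 5 times (6.67%, 40%, 40%, 20% and 33.3%), each share being below that of all genes above background (20.3%, 44.2%, 47.3%, 28.4% and 48.4%). Tfpi2, a secreted inhibitor of plasmin and some MMPs, was higher early (1.22, 0.86 and 0.36 at 1, 4 and 12 h) and at 0.27 and 0.086 did not pass at 24 and 48 h. Pcsk5, a proprotein convertase that activates proenzymes, was lower from 4 h on (-0.61, -0.76, -0.44 and -0.66), and Pcsk6 was higher from 12 h on (0.24, 0.38 and 0.49). Furin differed by 0.041 to 0.14 and did not pass. Rhbdf2 (iRhom2), which carries ADAM17 to the cell surface, was higher from 4 h on (0.29 to 0.41), and Tspan5, a partner of ADAM10, was higher at 4 h (0.53) and 12 h (0.21). Reck, a membrane-anchored inhibitor of MMPs, was lower at 12 h (-0.27).

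Of 21 substrates above background, 8, 11, 12, 12 and 15 passed at the 5 times (38.1%, 52.4%, 57.1%, 57.1% and 71.4%). At 4 and 12 h these shares were close to those of all genes above background (44.2% and 47.3%), and at 1, 24 and 48 h all genes were at 20.3%, 28.4% and 48.4%. The differences from all genes were not tested for this list or for the regulators. The EGF-family ligands that ADAMs release from the membrane were higher at every time: Areg by 1.35 to 2.42, Ereg by 1.27 to 2.54, Hbegf by 0.62 to 1.74 and Tgfa by 0.68 to 1.72. Beside them, Adam17 passed at no time, and Adam10 was higher at 12 h and lower at 48 h. Versican (Vcan), a substrate of the proteoglycanase group, was higher at every time (0.30, 0.62, 0.88, 0.74 and 0.80), as was Ltbp1 (0.30 to 1.53). Cd44, a hyaluronan receptor shed by ADAM10 and MT1-MMP, was higher at every time (0.27 to 0.95). Vcam1, which ADAM17 sheds, was lower at every time (-0.51, -0.91, -1.49, -0.95 and -1.70), and Notch1 was lower at 4, 12 and 48 h (-0.35, -0.24 and -0.54). The fibrillar collagens differed by less than these ligands, Col1a2 by -0.06 to 0.044 with no call and Col3a1 by -0.13, -0.15 and -0.16 at 4, 12 and 48 h. Of the genes named here, all but Tfpi2, Pcsk5 and the 4 ligands were picked after their values were seen.

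The 10 members near background were Mmp7, Mmp8, Mmp10, Mmp13, Mmp28, Adam2, Adam6, Adam7, Adam8 and Adam32. Mmp28 at 4 h was their only call (log2 -0.23, adjusted p = 0.012), where 5.75% of all genes near background were called, and no member near background reached 1.5-fold. Mmp8 (neutrophil collagenase) differed by -0.13 to 0.078 and Mmp13 (collagenase-3) by -0.096 to 0.055, so no change of these collagenases was detectable on the array. With the background level taken in each set by itself, Adamts16 was near background in set I, and Mmp3, Adam11, Adamts6 and Timp4 were in set II. Mmp28, with its call at 4 h, was then above background in set I.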

How the data were processed

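RNA of 35 NRVM samples was hybridized to 35 Affymetrix Rat Genome 230 2.0 arrays. The authors scanned them with GCOS 1.2 and summarized them by RMA in GeneSpring GX 12.6, per the labels and the methods, and deposited linear intensity values for 31099 probe sets. The intensities were taken to log2 here, 57 array control probe sets were left out, and 471 values in 427 probe sets that a spreadsheet had turned into dates were read back (0 of them in member probe sets). GEO's annotation gave 1 gene for 20826 probe sets, several for 436 and none for 9780. Each set was fitted by itself with limma 3.58.1 (R 4.3.3; lmFit and eBayes over all groups of the set) on 31042 probe sets, with Benjamini-Hochberg adjustment over all of them in each comparison. A call needs an adjusted p under 0.05, and a limit of 1.5-fold was used as well. The p-values rest on the spread between arrays within groups, pooled over all groups of a set and moderated across probe sets. The script was tested on simulated data with known changes. Other steps ran in python 3.11.15 (pandas 2.3.3, numpy 2.4.6).

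The members, the gene lists, the motifs and the tests were chosen with earlier results of these data known. Members are described in full where they reached 1.5-fold with an adjusted p under 0.05 at 1 or more times, together with Mmp2, Mmp14, Adam10, Adam17 and the 4 TIMPs in any case, and the rest by counts or short values. Of the regulators and of the substrates, up to 4 with the largest change past 1.5-fold were to be named. Alternatives were the ordinary variance of the set, the arrays of a comparison alone, other scalings, quantile normalization, a filter on dim probe sets, an offset of 16 before log2, array weights, the replicate number as a block, the mean over probe sets, dates set to missing, a variance trend, other background levels and leaving out each array in turn. The background level of each set by itself was added after seeing the data. Promoters came from RefSeq (GRCr8). Protein sequences were not used here.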

Additional observations from a re-analysis of the deposited data

Results flagged for a closer look

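In 11 of the 161 groups of 5 arrays examined for the named members, 1 array stood apart in log2 intensity, by a gap to the next array of more than 0.71 of the group's range. Chance alone does so in about 1 in 20 groups. The array was the lowest of its group for Adamts19 in the 4 h group (replicate 5, 7.74, next 7.92), Adamts19 in the 24 h group (replicate 1, 6.96, next 7.70), Adamts5 in control II (replicate 5, 10.48, next 10.81), Adamtsl1 in the 4 h group (replicate 5, 7.37, next 7.67), Mmp14 in the 1 h group (replicate 5, 11.25, next 11.61) and Timp3 in the 1 h group (replicate 5, 10.29, next 10.39). It was the highest for Adamts8 in the 12 h group (replicate 3, 8.97, next 8.86), Adamtsl4 in the 24 h group (replicate 4, 8.71, next 8.44), Mmp2 in the 48 h group (replicate 3, 12.52, next 12.45), Mmp9 in the 24 h group (replicate 1, 8.21, next 7.91) and Timp4 in the 12 h group (replicate 1, 5.52, next 5.30).

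Effects of stretch differed between neighboring times of a set for 27 pairs of a named member and a step, by limma's test of the difference itself. There were 23 named members, each tested at every step. Most of them were named for reaching 1.5-fold on these same arrays, and this choice favors a high count. Of all genes above background, 21.5% passed at the step to 4 h. For the step to 12 h the share was 14.9%, and for the step to 48 h it was 10.7%. From 1 to 4 h, the log2 level was higher for Adamts8 (0.53), Adamtsl5 (0.19), Mmp16 (0.32) and Timp1 (0.14) and lower for Adamts5 (-0.87), Adamts9 (-0.40), Mmp15 (-0.30) and Timp3 (-0.17). From 4 to 12 h, the log2 level was higher for Mmp16 (0.36), Mmp2 (0.14) and Mmp3 (0.73) and lower for Adam33 (-0.52), Adamts15 (-0.44), Adamts19 (-0.64), Adamts8 (-0.45), Adamts9 (-0.42), Adamtsl1 (-0.43), Adamtsl4 (-0.17), Adamtsl5 (-0.22) and Timp3 (-0.36). From 24 to 48 h, the log2 level was higher for Mmp16 (0.49) and lower for Adamts9 (-0.41), Adamtsl2 (-0.45), Mmp14 (-0.38), Mmp15 (-0.69), Mmp9 (-0.68) and Timp3 (-0.28).

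The dimmer probe sets, which stand for no gene in the counts, gave 8 values that differ from those of the brightest. For Adamts10 they were 0.97 at 48 h (brightest 0.19), 0.24 at 4 h (brightest -0.18) and 0.25 at 12 h (brightest -0.31) on the log2 scale. For Timp2 they were -0.69 at 48 h (brightest -0.17) on the log2 scale. For Timp3 they were 0.38 at 4 h (brightest -0.20), 0.39 at 12 h (brightest -0.56), 0.48 at 4 h (brightest -0.20) and 0.31 at 12 h (brightest -0.56) on the log2 scale.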

How the results depend on the processing

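Over 16 alternatives and 35 fits that left out 1 array each, no count of members called moved by more than 1.5 times. Some alternatives could move a count little or not at all. Background levels at the 90th and 99th percentile kept the same 45 members, and no member probe set held a date. Leaving out an array refitted its own set only, so counts of set I met 20 such fits and those of set II 15. The count between 4 and 12 h fell from 15 to 10 with only the arrays of the comparison, and the count past 1.5-fold at 4 h from 6 to 4 without replicate 5 of the 4 h group, which is 1.5 times in both. Without single arrays the counts at the 5 times were 9 to 13, 22 to 25, 27 to 30, 18 to 23 and 22 to 24. Counts past 1.5-fold were, in the same order, 1 to 1, 4 to 6, 8 to 10, 5 to 8 and 12 to 14, and those between neighboring times 10 to 14, 13 to 15 and 7 to 11. Of 75 calls among 115 results of named members and times, 69 kept their direction and call throughout. Averaging the probe sets of a gene turned Timp3 at 4 h to 0.18 (adjusted p = 0.0076) and ended the calls of Timp3 at 12 h (-0.026), Adamts9 at 48 h (-0.14) and Mmp14 at 24 h (0.13). Centring arrays on their median ended those of Timp2 at 48 h (-0.12) and Adam33 at 1 h (-0.22), and the ordinary variance ended the latter too (-0.24, adjusted p = 0.053). The causes were not tested.

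Replicate numbers run from 1 to 5 in every group, and the labels do not say whether they pair the arrays. Per the methods, stretch was started in steps within each culture, so groups of a set may share cultures. Correlations of same-numbered deviations were -0.393 to 0.539. Between control II and 24 h all were positive (median 0.174, other numbers -0.08), and between 24 and 48 h their median was -0.207. Pairing stays unresolved, and the main tests took the arrays as unpaired. With the replicate number as a block, the calls at the 5 times were 11, 24, 29, 22 and 23, and Adam10 at 4 h (adjusted p = 0.0454) and Adam33 at 24 h (0.0453) passed as well. Signal over background limits Mmp3 and the controls of Mmp16 in set II, Timp4, and the 10 members near background.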
